A study of Mus musculus with 6 samples.

Results

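The genes expressed in the control mouse uterus on gestational day 4 were described from the 3 libraries labelled Mettl3 f/f. A gene was counted as expressed when its value was at least 1 FPKM in each of the 3 libraries. FPKM is the number of sequenced fragments of a gene scaled by the length of its transcripts in kilobases and by the depth of the library, so levels can be set side by side between genes of different length. The rule took 12474 of the 21936 rows of the deposited tables (56.9%), with 12466 distinct symbols. Defining genes of the tissues that make up a whole uterus were members: Epcam of the epithelium, Dcn of the stroma, Myh11 of the muscle and Pecam1 of the vessels.

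The RNA was total RNA of whole uteri from females of 6 to 8 weeks, mated with fertile males, with the day of the vaginal plug counted as day 1 and the tissue taken on day 4. The genotype f/f by the usual notation stands for a pair of loxP-flanked alleles of Mettl3, the catalytic subunit of the enzyme that writes N6-methyladenosine on RNA. The labels do not give the strain, the Cre driver of the study, whether an f/f animal carried Cre, or which exons are flanked. Nor do they state whether each replicate is an animal of its own, so the spread between libraries may be partly technical. The design gives 1 group of 3 libraries here, so no test was made, and values are given in the order of replicates 1, 2 and 3.

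On this day the mouse uterus becomes receptive to the blastocyst. Progesterone made by the ovary stops the epithelium from dividing and readies it for attachment, and a short rise of estrogen triggers leukemia inhibitory factor from the glands. The epithelium signals to the stroma below it through Indian hedgehog, and the stroma, held by the muscle layers of the myometrium, is the tissue that will become the decidua.

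The libraries summed to 564917, 570672 and 535043 FPKM, of which the members held 99.7% in each. Low values of genes with a single exon were whole multiples of 1 fragment, from which depths of 17720000, 17840000 and 17820000 fragments were estimated. At this depth 1 FPKM in a transcript of 2000 bases stood for 31.3 to 31.5 fragments. Genes with a value above 0 numbered 16208, 16205 and 16282. All 172 genes of the Y chromosome in the tables were listed at 0, and none of 5 sperm genes and none of 8 genes of blastocyst and trophoblast was a member.

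Expression was concentrated in few genes. The 10 most abundant genes of each library held 10.96%, 10.69% and 10.40% of all FPKM, and the 100 most abundant held 31.8%, 31.9% and 30.2%. A cumulative share of 50% was reached with 501, 493 and 568 genes, and 90% with 5519, 5435 and 5685. Only 55 members (0.441%) had a mean of 1000 FPKM or more, and they held 25.1% ± 0.74 (SD, n = 3) of the FPKM. The 4636 members between 1 and 10 FPKM were 37.2% of the genes and held 4.29% ± 0.21 (SD, n = 3). The median member had a mean of 14.7 FPKM, with quartiles of 6.49 and 33.5.

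**Figure D1:**
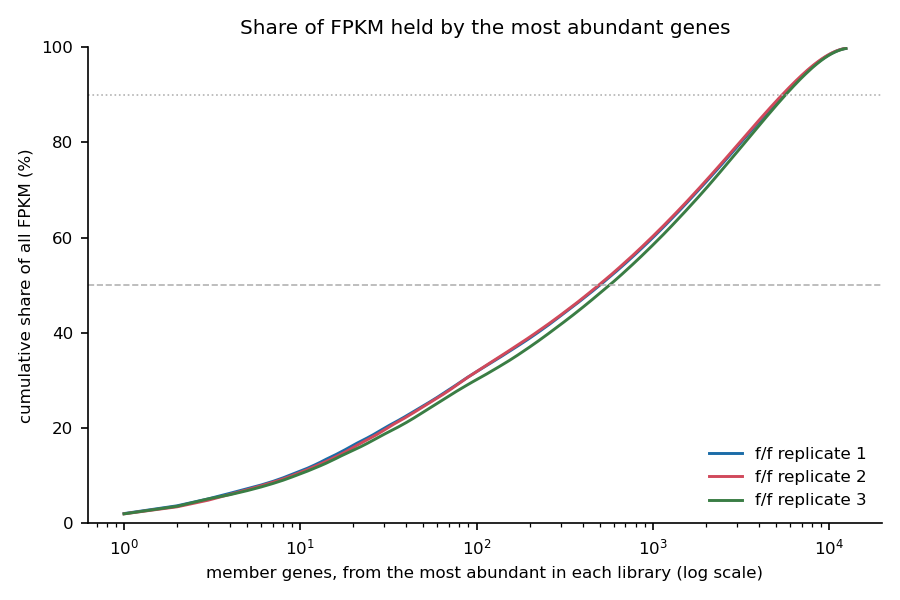
Cumulative share of all FPKM (%) against the number of member genes, ranked within each library, on a log axis, with 1 line for each f/f library. The lines of replicates 1 and 2 lie together and that of replicate 3 runs slightly below them, as the 100 most abundant genes held 31.8%, 31.9% and 30.2%.

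Genes of the mitochondrial genome, which code for subunits of the respiratory chain, led the ranking. mt-Co1, a subunit of cytochrome c oxidase, was first with 11627, 11434 and 10724 FPKM. mt-Cytb, the cytochrome of complex III, had 9232, 8430 and 8477 FPKM, and mt-Nd1, a subunit of complex I, had 8185, 7919 and 8271. The highest and the lowest library differed by less than 1.10-fold for each of these genes. Of the 13 protein-coding mitochondrial genes 10 were members, and all 13 together held 7.18% ± 0.22 (SD, n = 3) of the FPKM.

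The most abundant nuclear gene was Actb, cytoplasmic beta-actin, on chromosome 5 at 142903115 to 142906754 on the reverse strand of GRCm38. Its values were 6706, 7100 and 4802 FPKM, so replicate 3 stood 1.48-fold below the highest library. Tmsb4x, thymosin beta-4, which binds free actin monomers, had 4387, 4710 and 3664 FPKM in the same order of libraries. Rpl41, the smallest protein of the ribosome, had 5397, 5464 and 4526 FPKM. Eef1a1, the factor that brings aminoacyl-tRNA to the ribosome, had 4243, 4278 and 3894 FPKM.

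Among the 30 most abundant genes 10 were sorted by symbol as ribosomal proteins, 7 were mitochondrial, 2 belonged to antigen presentation and 2 to the actin cytoskeleton. The others included the lysosomal Ctsd, a pair of metal-binding proteins and the ribosomal protein-like Rps27rt, which ranked 16. Ctsd, the aspartic protease cathepsin D of the lysosome, ranked 11 with 3628, 3749 and 3128 FPKM. It lies on chromosome 7 at 142375911 to 142388038 of GRCm38. The 18 cathepsins, 12 of them members, together summed to 4670, 4806 and 4103 FPKM. Mt2 and Mt1, metallothioneins that bind zinc and copper, had means of 2323 ± 393 and 1908 ± 373 FPKM (SD, n = 3). Gsto1 and, just outside the 30, Gstm1, enzymes that use glutathione, had means of 1916 ± 58.5 and 1753 ± 49.9 FPKM (SD, n = 3), and their 3 values lay within 1.06-fold of each other. Further down, ferritin, which stores iron, was abundant in both chains, with 1266 ± 110 FPKM for Fth1 and 1003 ± 29.8 for Ftl1 (SD, n = 3). Apoe, a secreted apolipoprotein, ranked 50 and had 1102, 1084 and 1148 FPKM.

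When the genes were sorted by symbol into disjoint classes, cytosolic ribosomal proteins held the largest share of the 20 named classes. Their share was 9.09% ± 0.17 (SD, n = 3) for 86 genes, of which 83 were members. The mitochondrial genome followed at 7.18%, then the contractile and other cytoskeleton at 4.62% ± 0.78 with 87 members of 131. Nuclear genes of the respiratory chain and ATP synthase held 3.43% ± 0.07, and 57 of their 99 members had a mean of at least 100 FPKM against 855 of all 12474 members. Translation factors held 2.14% ± 0.03, RNA binding proteins 2.02% ± 0.10 and the extracellular matrix 1.99% ± 0.05. Transcription factors of named families were many and low: 720 genes held 1.71% ± 0.07, and the 548 members among them had a median of 8.11 FPKM. The remaining 17056 genes outside all named classes, 10225 of them members, held 57.9% ± 0.62. Shares of FPKM count a short and a long transcript alike; as shares of estimated fragments, which weight genes by length, the ribosomal class fell to 4.99%, the mitochondrial genome to 2.32% and the cytoskeleton to 3.81%, while the matrix had 3.12%.

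**Figure D2:**
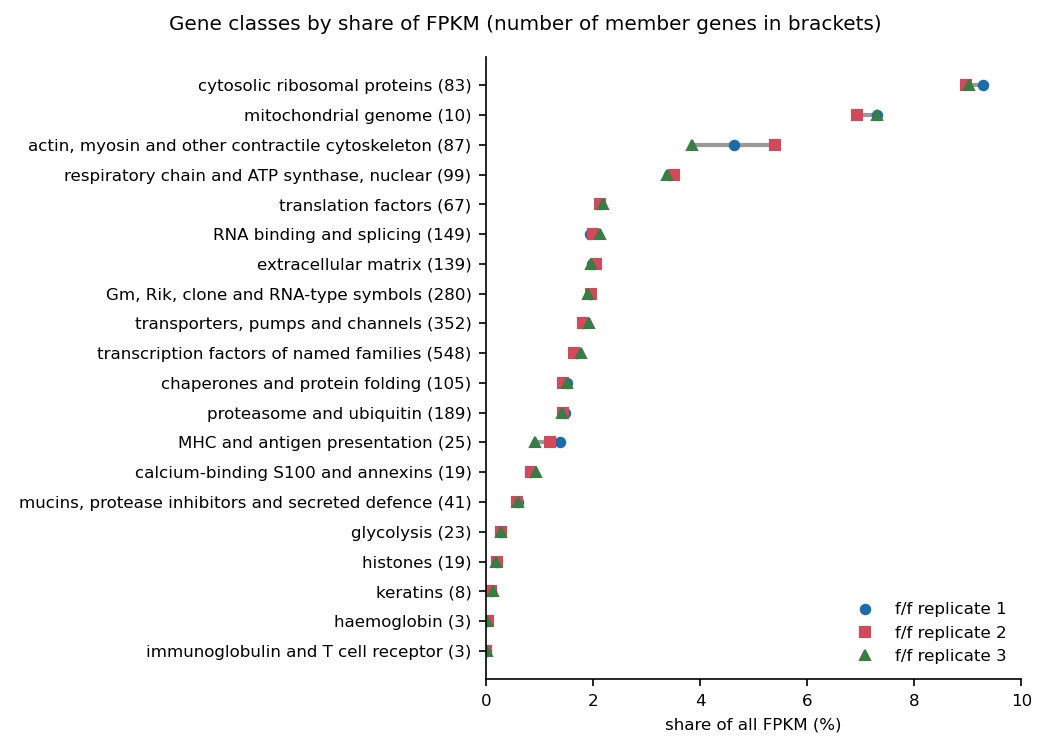
Share of all FPKM (%) held by each of 20 gene classes, with 1 point per f/f library and a grey line from the lowest to the highest library. Most points lie on top of each other, whereas the cytoskeleton runs from 3.84% to 5.39% and antigen presentation from 0.918% to 1.39%.

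The extracellular matrix was led by Col3a1, the chain of collagen III, with 935, 979 and 884 FPKM. It was followed by Igfbp7, a secreted protein that binds insulin-like growth factors, with 810 ± 50.4 FPKM (SD, n = 3), and by Sparc, a collagen-binding glycoprotein, with 764 ± 132. Among calcium-binding proteins S100a6 had 1066 ± 103.2 FPKM and S100g, the vitamin D-dependent calcium-binding protein calbindin-D9k, had 992, 929 and 1220. Wfdc2, a secreted protein of the whey acidic protein family, led the mucins and protease inhibitors with 614, 649 and 474 FPKM. Fxyd4 and Fxyd1, small regulators of the sodium pump, led the transporters with 931 ± 116 and 768 ± 174 FPKM. Hsp90ab1, a chaperone of the steroid receptors among other clients, led protein folding with 923 ± 53.2 FPKM. Cox6c and Atp5b led the nuclear respiratory genes with 1270 ± 125 and 1063 ± 43.8 FPKM.

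**Figure D3:**
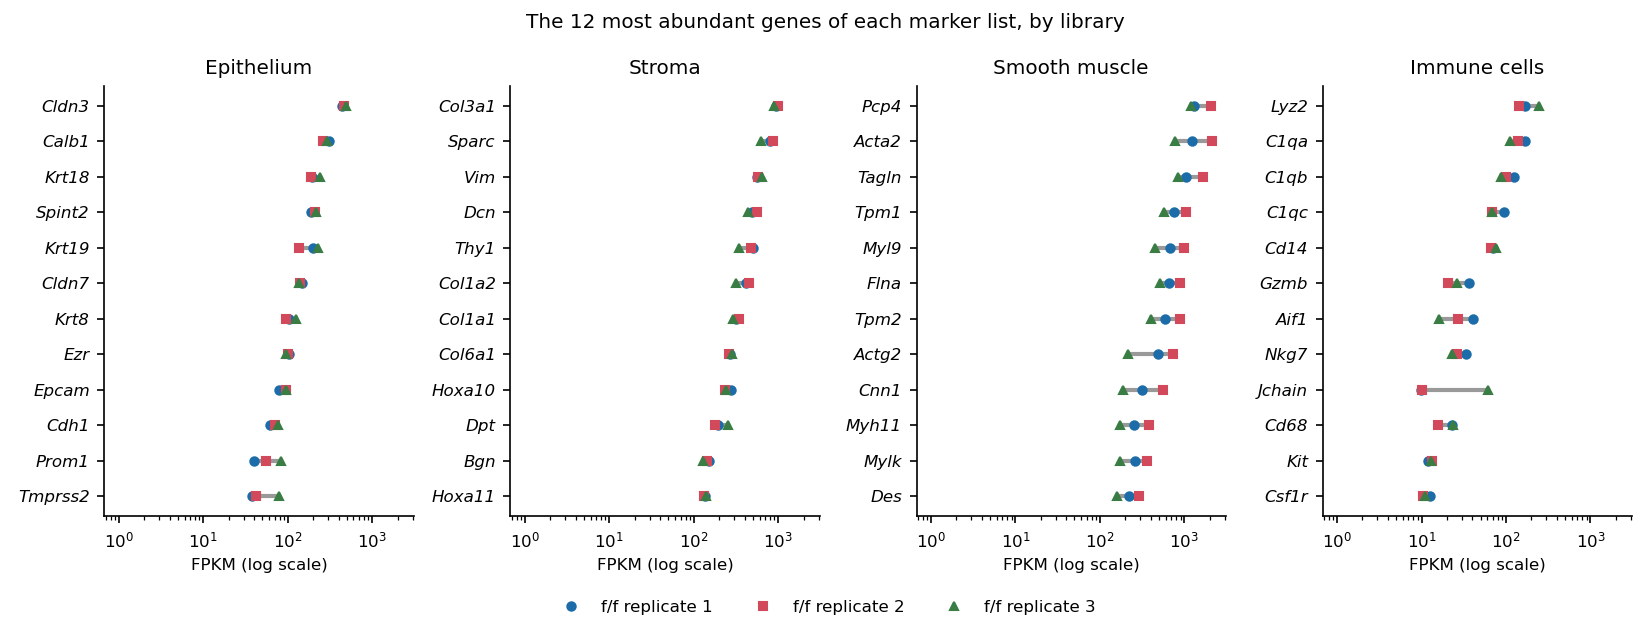
FPKM on a log axis of the 12 most abundant genes of the epithelial, stromal, smooth muscle and immune lists, with 1 point per f/f library. The muscle genes lie highest, with Acta2 at 1243, 2115 and 777 FPKM, the leading immune gene Lyz2 lies at 143 to 248, and Jchain has the widest range of the genes shown.

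The transcription factors highest in this uterus are those known from its patterning and its response to progesterone. Hoxa10, a homeobox factor of stroma and muscle that is needed for implantation, was first with 279, 235 and 243 FPKM. Sox17, a factor of the epithelium and of arteries, had 218, 246 and 267 FPKM. Msx1, a homeobox factor of the receptive epithelium, had 189, 205 and 307 FPKM, and Gata2, a factor that acts with the progesterone receptor, had 228, 213 and 235. Irf7 followed with 214, 212 and 130 FPKM. Among the next were Zfp36l1 with 135 ± 9.49 (SD, n = 3), Hoxa11 with 135 ± 3.51 and Nr2f2 with 124 ± 9.90.

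The steroid receptors themselves were at moderate levels. Esr1, the estrogen receptor alpha, had 46.0, 43.7 and 52.8 FPKM. Pgr, the progesterone receptor, had 23.9, 23.6 and 23.1 FPKM. Nr3c1, the glucocorticoid receptor, had a mean of 11.04 FPKM, whereas Esr2 and Nr3c2 were below the threshold at means of 0.0394 and 0.646. Fkbp4, the immunophilin that keeps the progesterone receptor in its binding state, was the highest of the list with 162, 171 and 174 FPKM. In all, 15 of 17 receptors and coregulators were members, with a median of 19.7 FPKM against 14.7 for all members.

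All 14 listed epithelial genes that respond to progesterone were members, with summed values of 911, 967 and 1374 FPKM. Replicate 3 was the highest library for 11 of the 14, against 38.1% of all members. Cbr2, a carbonyl reductase, had 131, 134 and 394 FPKM and Alox15, a lipoxygenase, had 111, 171 and 202. Ihh, the hedgehog ligand of the epithelium, had 35.1, 39.9 and 51.2 FPKM, Areg, the EGF receptor ligand amphiregulin, had 8.90, 8.60 and 19.7, and Calca, which codes for calcitonin, had 2.88, 3.81 and 18.1. Acod1, the enzyme that makes itaconate, had 76.3, 61.0 and 73.1 FPKM and did not share this order.

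The stromal arm of the response had sums of 778, 719 and 750 FPKM over 12 genes, of which 11 were members. The range of these sums was 1.08-fold against 1.51-fold for the epithelial arm. After Hoxa10 and Hoxa11 came Nr2f2, the factor COUP-TFII, with 128, 113 and 132 FPKM and Gas1, a hedgehog co-receptor, with 67.3, 84.9 and 67.7. Hand2, which restrains growth factor signals to the epithelium, had 65.9, 57.8 and 53.8 FPKM. Gli1 and Ptch1, which report hedgehog signalling, had means of 49.9 ± 3.49 and 22.6 ± 5.81 FPKM (SD, n = 3). Wnt4 and Bmp2, which rise later during decidualization, were low: Wnt4 was not a member with 2.06, 1.26 and 0.849 FPKM, and Bmp2 had a mean of 2.24.

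Estrogen-responsive genes summed to 441, 425 and 566 FPKM over 19 genes, of which 16 were members. Igf1, insulin-like growth factor 1, led with 157, 122 and 190 FPKM. Ltf, lactotransferrin, had 57.0, 68.3 and 116 FPKM, Muc1, the mucin of the luminal surface, had 27.6, 40.1 and 53.2, and Sprr2f, a small proline-rich protein, had 21.7, 16.8 and 50.4, each highest in replicate 3. C3, complement component 3, had 35.9, 40.9 and 9.75 FPKM and was lowest there. Over the 16 members replicate 3 was the highest library for 8 and the lowest for 6, against 38.1% and 37.0% of all members.

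All 18 genes of LIF signalling and receptivity were members. After Msx1 came Fgfr2, a fibroblast growth factor receptor of the epithelium, with 94.2 ± 2.94 FPKM (SD, n = 3) and Stat3, the transcription factor downstream of LIF, with 83.3, 84.8 and 53.6. The ligand Lif was low at 4.67, 6.20 and 1.36 FPKM and lowest in replicate 3, and Socs3, a feedback inhibitor induced by STAT3, had 12.2, 13.7 and 5.32. Lpar3, a receptor for lysophosphatidic acid that is linked to embryo spacing, had 45.7, 53.7 and 43.0 FPKM. In prostaglandin synthesis Ptges3 and the phospholipases Pla2g10 and Pla2g4a led with means of 87.1, 59.5 and 54.3 FPKM, Ptgs1, cyclooxygenase 1, had 28.0 ± 4.65 and Ptgs2, cyclooxygenase 2, was below the threshold at a mean of 0.838. Of 18 genes of the Wnt pathway 14 were members, led by Ctnnb1, beta-catenin, with 344, 334 and 337 FPKM and by the ligand Wnt5a with 55.3 ± 3.49. The insulin-like growth factor system was led by its binding proteins Igfbp7, Igfbp4 and Igfbp6, with Igfbp4 at 284.9, 256.5 and 344.9 FPKM.

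The 21 genes of the luminal and shared epithelial list were all members and summed to 2110, 2088 and 2396 FPKM, or 0.396% ± 0.045 of the total (SD, n = 3). Cldn3, a tight junction claudin, led with 433, 466 and 483 FPKM. Calb1, the calcium-binding protein calbindin-D28k, had 304, 260 and 294 FPKM, the simple-epithelium keratins Krt18, Krt19 and Krt8 had means of 207, 188 and 108, and Spint2, an inhibitor of membrane serine proteases, had 191, 212 and 218. Epcam and Cdh1, the adhesion proteins that define epithelium, had 89.6 ± 9.23 and 70.2 ± 7.32 FPKM. Replicate 3 was the highest library for 14 of the 21 genes, against 38.1% of all members. In a bulk sample such as this, fewer cells of a type and less RNA per cell cannot be told apart.

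Glandular genes had a median of 8.34 FPKM over 8 members, against 14.7 for all members. Over the 10 listed genes the sums were 97.03, 133.5 and 119.2 FPKM. These sums were 0.0460, 0.0639 and 0.0497 of the epithelial sum. Foxa2, the transcription factor that glands require, had 4.76, 7.73 and 18.4 FPKM. Cxcl15, a chemokine of gland cells, had 15.5, 20.2 and 34.6 FPKM in the same order. Wfdc3 and Spink1, secreted protease inhibitors, went the other way, with 31.3, 47.9 and 23.7 FPKM and with 31.0, 36.9 and 20.7. The serine proteases Prss28 and Prss29 were below the threshold, with no value above 0.296 FPKM.

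All 20 stromal genes were members, with sums of 5606, 5729 and 5071 FPKM and a median of 174 FPKM. After Col3a1 and Sparc came Vim, the intermediate filament protein vimentin, with 562, 575 and 649 FPKM, Dcn, the proteoglycan decorin, with 493, 566 and 436, and Thy1, a surface glycoprotein of fibroblasts, with 507, 472 and 340. The highest library was replicate 1 for 7 genes, replicate 2 for 6 and replicate 3 for 7. The lowest was replicate 3 for 12 of the 20, against 37.0% of all members, replicate 2 for 7 and replicate 1 for 1. Its sums differed by 1.13-fold between the highest and the lowest library.

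Smooth muscle gave the largest sums of the 25 cell type lists, 8247, 12522 and 6051 FPKM over 20 genes, of which 19 were members. These sums were 1.59% ± 0.54 of the total (SD, n = 3). Pcp4, a calmodulin regulator that was on this list, had 1283, 2042 and 1211 FPKM. Acta2, smooth muscle alpha-actin, had 1243, 2115 and 777 FPKM, and Tagln, the actin-binding protein transgelin, had 1051, 1657 and 836. Myh11, the myosin heavy chain that defines smooth muscle, had 252, 383 and 175 FPKM, and Actg2, the gamma-actin of visceral muscle, had 491, 738 and 213. Replicate 2 was the highest library for 18 of the 19 genes and replicate 3 the lowest for 18, against 31.4% and 37.0% of all members. The sum of the list was 2.07-fold higher in replicate 2 than in replicate 3, and the ratio of the muscle to the stromal sum was 1.47, 2.19 and 1.19. Oxtr, the oxytocin receptor, was just above the threshold at a mean of 1.38 FPKM.

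Genes of skeletal and fetal muscle had lower levels. Of the 7 genes on the striated list 3 were members, and 2 of these were highest in replicate 2 and lowest in replicate 3. Acta1, skeletal alpha-actin, had 69.6, 142 and 19.5 FPKM. The troponins Tnnt2 and Tnni2, named after their values were seen, had 38.6, 54.2 and 9.70 FPKM and 25.7, 41.3 and 5.82. Among the troponins and the skeletal and cardiac actins 7 of 10 were members, of which 6 were highest in replicate 2 and 5 lowest in replicate 3. Tnni3 was nearly even at 6.97, 7.71 and 7.55 FPKM, and Tnnc1, with a mean of 1.21, was highest in replicate 3. The skeletal myosins Myh1 and Myh4 were listed at 0 in all 3 libraries. Red cell genes, with sums of 68.3, 215 and 72.0 FPKM, and endothelial genes were also highest in replicate 2, and their part in the order of the muscle genes was not tested.

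Vessels were led by Egfl7, a secreted endothelial protein, with 212, 220 and 145 FPKM and by the sialomucin Emcn with 97.8, 95.5 and 68.9. Pecam1 and Cdh5, the adhesion proteins that define endothelium, had 67.4, 86.1 and 53.7 FPKM and 65.9, 72.0 and 46.6. All 16 genes were members, with sums of 790, 894 and 574 FPKM, and replicate 3 was the lowest library for 14 of them, against 37.0% of all members. Rgs5, a regulator of G proteins in pericytes, had 117, 105 and 131 FPKM, and made up 47.4% of the sum of the 7 pericyte genes, which differed by 1.05-fold between libraries. The other 6 summed to 137, 144 and 111 FPKM, a 1.30-fold range, and 5 of the 7 genes were highest in replicate 2. Lymphatic genes were few and low, with Lyve1 at 6.99, 13.5 and 5.82 FPKM, Prox1 below the threshold and Pdpn listed at 0.

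Immune genes were mostly low. Of 75 rows in 8 immune lists 39 were members, and the lists summed to 974, 793 and 913 FPKM, or 0.161% ± 0.019 of the total (SD, n = 3). Macrophage genes made up most of this: Lyz2, lysozyme, had 169, 143 and 248 FPKM, and the 3 chains of complement C1q, C1qa, C1qb and C1qc, had means of 140, 105 and 77.2. Cd14, the co-receptor for lipopolysaccharide, had 70.0, 66.9 and 75.9 FPKM, and Csf1r, the receptor that macrophages depend on, had 11.3 ± 1.26 (SD, n = 3). The resident marker Cd163 was below the threshold.

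All 11 natural killer cell genes were members, with sums of 140, 97.1 and 76.0 FPKM. Gzmb, the cytotoxic protease granzyme B, had 36.9, 20.5 and 26.4 FPKM and Nkg7, a granule protein, had 33.4, 26.2 and 22.7. Gzma, granzyme A, had 14.4, 10.9 and 2.35 FPKM, and Ncr1, a defining receptor of these cells, had 6.88, 3.10 and 2.49. Replicate 1 was the highest library for 10 of the 11 genes and replicate 3 the lowest for 10, against 30.5% and 37.0% of all members; Gzmb was lowest in replicate 2.

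B and plasma cell genes stood out in 1 library. Jchain, which joins secreted immunoglobulins, had 9.78, 10.04 and 60.7 FPKM and Mzb1, a chaperone of plasma cells, had 2.53, 1.49 and 7.86, both highest in replicate 3. The B cell genes Cd79a, Cd79b, Ms4a1 and Pax5 stayed below the threshold. Among T cell genes Lck had a mean of 10.3 FPKM and Cd3g had 3.75, 1.81 and 10.01, while Cd4, Cd8a and Foxp3 were below the threshold. Neutrophil genes were represented among the members by Csf3r alone, at a mean of 2.39 FPKM, and S100a9 had 2.63, 0.401 and 4.22. Kit, which is also found outside mast cells, was the only member of the mast cell list.

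Genes listed for cell types that surround the uterus or share its vessels had the following levels, and the source of their RNA was not tested. Of the red cell genes Hba-a1, a globin, had 33.0, 116 and 44.6 FPKM with 67.5% of its sequence words found at other loci. Ovgp1, the oviductal glycoprotein, had 88.2, 17.7 and 29.4 FPKM, and the ovarian enzymes Cyp11a1 and Cyp17a1 stayed below 0.10. No adipocyte gene was a member, although their sums were 6.26, 13.8 and 1.48 FPKM. Of 7 mesothelial genes only Wt1, a factor that uterine stroma also expresses, was a member, with 75.3, 66.3 and 56.8 FPKM. Pou5f1, Cdx2, Hand1 and Prl3d1 of the embryo were listed at 0 in all 3 libraries; for Cdx2, with 1 transcript, 3 fragments would have given 0.0834 FPKM.

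**Figure D4:**
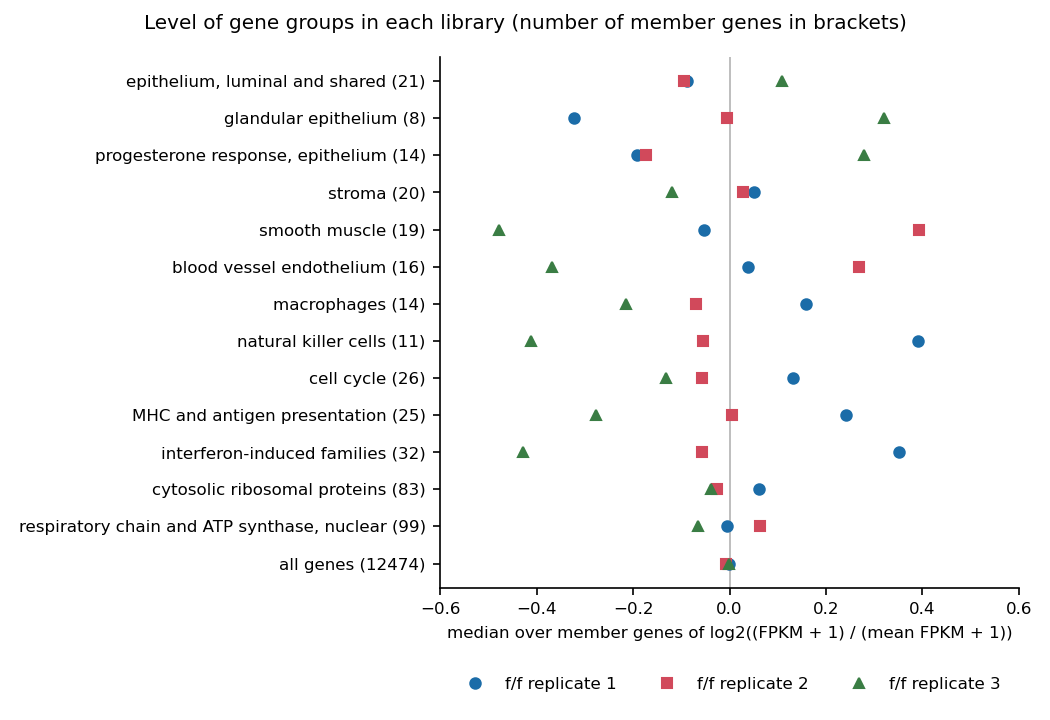
Median over the member genes of a list or class of the log2 ratio of (FPKM + 1) in 1 library to (mean FPKM + 1) over the 3 libraries, with 1 point per f/f library. Smooth muscle lies at -0.05, 0.39 and -0.48 and the interferon-induced families at 0.35, -0.06 and -0.43, whereas all members lie within 0.01 of 0.

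Most genes induced by interferons and of antigen presentation were highest in replicate 1. B2m, the light chain of MHC class I, ranked 15 of all genes with 3562, 2984 and 2027 FPKM. H2-K1, a heavy chain of class I, had 2084, 2036 and 1307 FPKM, and the class II chains H2-Aa and H2-Ab1 had 249, 195 and 200 and 261, 201 and 175. Of the 25 member genes of antigen presentation 21 were highest in replicate 1, against 30.5% of all members, and the class held 1.39%, 1.20% and 0.918% of the FPKM. Ifitm3, a membrane protein that hinders virus entry, ranked 19 with 2903, 3011 and 2113 FPKM and was highest in replicate 2. Of the 12 member IFITM and Ly6 genes 6 were highest in replicate 1 and 6 in replicate 2, against 30.5% and 31.4% of all members.

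Families induced by interferons were grouped after their values were seen, so their order is a description of these libraries. They summed to 3246, 2529 and 1868 FPKM over 40 genes, of which 32 were members. Of these members 27 were highest in replicate 1 and 27 lowest in replicate 3, against 30.5% and 37.0% of all members. Bst2, the tether that holds budding virus particles at the cell surface, had 749, 592 and 404 FPKM. Igtp and Iigp1, GTPases that act on vacuoles of intracellular parasites, had 190, 110 and 62.8 FPKM and 181, 100 and 50.6. Gbp2, a guanylate-binding protein, had 119, 61.8 and 30.2 FPKM, a 3.95-fold range. Isg15, a ubiquitin-like modifier, had a narrower range with 247, 213 and 182 FPKM, and Oasl2, of the oligoadenylate synthetase family, had 315, 311 and 300.

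The response element that interferon-activated factors bind has 2 GAAA boxes. Stretches of 100 bases before the start are shown for 6 of the genes with a match to GAAANNGAAA there. The stretches have each match, on either strand, in capitals. They were taken from RefSeq for GRCm38.p6 and are written 5′ to 3′ on the strand of the gene, ending at the base before the start.
Isg15, chr4:156200819-156200918, reverse strand: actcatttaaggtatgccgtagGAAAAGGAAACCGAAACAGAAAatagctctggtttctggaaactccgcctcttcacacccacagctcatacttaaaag
Igtp, chr11:58199456-58199555, forward strand: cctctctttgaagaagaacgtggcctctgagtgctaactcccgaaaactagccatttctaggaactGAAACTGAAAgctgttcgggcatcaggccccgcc
Irgm2, chr11:58214877-58214976, forward strand: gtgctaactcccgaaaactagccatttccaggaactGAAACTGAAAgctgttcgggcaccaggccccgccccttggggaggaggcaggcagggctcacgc
Tgtp1, chr11:48992247-48992346, reverse strand: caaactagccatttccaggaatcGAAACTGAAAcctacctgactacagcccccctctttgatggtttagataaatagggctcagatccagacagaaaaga
Gbp2, chr3:142620563-142620662, forward strand: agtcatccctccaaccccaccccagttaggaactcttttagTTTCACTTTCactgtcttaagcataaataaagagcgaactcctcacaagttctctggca
Ifit1, chr19:34640789-34640888, forward strand: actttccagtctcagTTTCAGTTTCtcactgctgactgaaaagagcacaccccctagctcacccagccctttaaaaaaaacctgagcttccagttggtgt

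Igtp, Irgm2 and Tgtp1, all on chromosome 11, carried the same GAAACTGAAA, and Ifit1 carried it on the other strand. Gbp2 also had its match on the other strand, where the element reads as TTTC boxes. Isg15 had 3 overlapping matches in a single run, whereas each of the other stretches had 1. Not shown are further genes with a match in the same 100 bases, such as Gbp3 and Irgm1. Bst2, Stat2, Ifit3 and Gbp5 were among those without a match in these 100 bases. In the 250 bases before the start the element was found in 19 of the 25 interferon-induced members that had a window in the RefSeq table, in 14.3% of 21 members of antigen presentation, and in 3.04% of all 27025 windows of that length. Only 25 of the 32 members had a window, which is under the 80% needed for a comparison between sets, so the share is void as a comparison. The levels of the 6 genes differed as follows: Irgm2 had 93.8, 58.4 and 45.5 FPKM, Tgtp1 had 30.04, 16.5 and 7.08, and Ifit1 had 60.6, 69.5 and 58.4. Ifit1 was highest in replicate 2, and the part of the element in the order of the libraries was not tested. Windows were found for 9919 of the 12474 members (79.5%), so other promoter features of the members were not compared.

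All 26 listed cell cycle genes were members, against 56.9% of all rows. Cdk4, a kinase of the G1 phase, led with 542, 544 and 494 FPKM. Top2a, the topoisomerase that unties chromosomes, had 98.0, 84.3 and 58.5 FPKM, and Mki67, a marker of proliferating cells, had 17.49, 12.02 and 12.09. Replicate 1 was the highest library for 17 of the 26, against 30.5% of all members. Of the immediate early genes Egr1, a zinc finger factor, had 15.5, 23.6 and 87.6 FPKM, against 75.4, 64.2 and 82.1 for Myc and 44.9, 39.4 and 38.6 for Jun. Jund was listed at 0 in all libraries, where 3 fragments would have given 0.118 FPKM. Of its 1668 exon bases 877 overlap another annotated gene, and the part of this overlap in its level was not tested.

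Genes of N6-methyladenosine were among the most even. Mettl3 had 30.3, 29.8 and 26.3 FPKM, its partner Mettl14 9.54, 9.76 and 10.5, and the scaffold Wtap 32.3, 31.8 and 34.8. The readers Ythdc1 and Ythdf3 had means of 63.8 ± 2.23 and 33.3 ± 1.62 FPKM (SD, n = 3), and Hnrnpa2b1, an abundant RNA binding protein, had 770, 769 and 812. The demethylases Fto and Alkbh5 had 27.6 ± 1.38 and 17.7 ± 1.46 FPKM. Of the 20 listed genes 18 were members, with a median SD of 0.07 on the log2(FPKM + 1) scale against 0.12 for all members.

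The 3 libraries ordered the members almost alike, with Spearman correlations across genes of 0.988 between replicates 1 and 2 and of 0.977 between replicate 3 and each of the others. Genes are not independent replicates, so these are given without a test. Replicates 1 and 2 agreed within 1.5-fold for 95.2% of members, and replicate 3 agreed so with them for 90.5% and 89.8%. More than 2-fold separated the highest from the lowest library for 553 members (4.43%). The least variable genes with a mean of at least 100 FPKM were Atp5k, a subunit of ATP synthase, at 182.6, 183.0 and 183.1 FPKM and Hnrnpl, a splicing regulator, at 204.1, 203.7 and 205.0.

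At the other end stood genes of several kinds, and 10 of the 20 most variable members with a mean of at least 10 FPKM were highest in replicate 2 and lowest in replicate 3, against 19.8% of all members. Lrg1, a secreted glycoprotein, had 11.6, 38.4 and 2.39 FPKM, Coch, the matrix protein cochlin, had 8.75, 28.4 and 2.52, and Retnla, a protein of alternatively activated macrophages, had 10.04, 21.8 and 2.00. Others were set apart in replicate 3 alone, such as Angptl7, an angiopoietin-like protein, with 29.9, 41.1 and 154 FPKM. Larp1b, an RNA binding protein, had 274, 13.3 and 14.2 FPKM. Zc3h11a, an mRNA export factor, was listed in 2 rows whose exons overlap: 1 row had 2.11, 42.3 and 51.6 FPKM and the other 91.9, 52.1 and 43.4, and their sums of 94.1, 94.4 and 95.0 were nearly equal. Hnrnph1, a splicing regulator, was the most abundant RNA binding protein with 475, 1004 and 1139 FPKM.

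Some housekeeping genes were low, and most of those named here share sequence with other loci. Sharing was measured as the percentage of a gene's 50-base words that also occur at another annotated locus. Gapdh, the glycolytic enzyme often used as a reference, had 4.07, 4.04 and 2.63 FPKM with 58.4% of its words shared, and Ppia, cyclophilin A, had 4.40, 3.00 and 3.07 with 32.4%. The mitochondrial genes mt-Co2 and mt-Co3, which were not members, and mt-Atp6, mt-Nd3 and mt-Nd4l, with 98.0% to 100% shared, had means of 1.05 to 7.57 FPKM, although mt-Co1 at 51.1% shared was the highest gene of all and mt-Nd4 at 62.2% had a mean of 3251. mt-Atp8, not a member, was also low with 11.2, 0 and 5.58 FPKM, and none of its words was shared. Of the ribosomal proteins Rps6 had 2.29 ± 0.14 FPKM with 84.6% shared and Rpl23a 2.60 ± 0.50 with 82.6%. Rps27rt, with 91.1% shared, had 2766 ± 166 FPKM. The part of sharing in these levels was not tested. Without the rows that share at least 50% of their words, the mitochondrial share was 4.88% and the ribosomal share 8.76%.

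**Figure D5:**
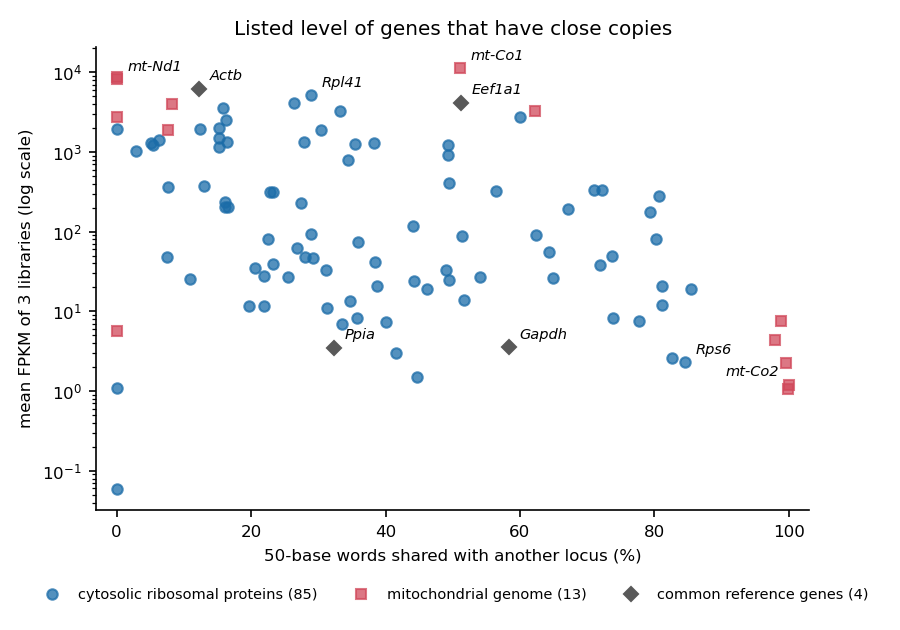
Mean FPKM over the 3 f/f libraries, on a log axis, against the percentage of 50-base words shared with another annotated locus, with 1 point per gene for ribosomal proteins, mitochondrial genes and 4 reference genes. Points with most words shared are found at both ends of the scale, from mt-Co3 at 1.05 FPKM to mt-Co1 far above 1000.

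The most abundant members had shorter transcripts in the annotation. The median length of all annotated exons of a gene was 1824 bases in the 100 most abundant members, 3060 in the 1248 most abundant and 4482 in all members, against 2376 in the 9462 rows that were not members. By chromosome, 10.4% of the FPKM came from chromosome 7, which carries Ctsd, Ifitm3 and Rpl13a, and 42.5% of the rows of the X chromosome were members.

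The threshold cut through a continuous range. Fosb, Slc26a10, Slc7a11 and Cd96 lay just inside, with lowest values of 1.002 to 1.003 FPKM, and Aph1c, Zfp991, Kcnq5 and Plxnc1 just outside, with lowest values of 0.997. Of the rows that were not members 4852 (22.1% of all rows) were listed at 0 in all 3 libraries, and 779 reached 1 FPKM in 1 or 2 libraries.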

How the data were processed

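RNA sequencing of whole uterus gave 6 libraries, of which the 3 labelled Mettl3 f/f were used. Total RNA came from TRIzol extraction and went into a TruSeq RNA kit, per the labels' protocols. The submitters' processing notes name HISAT2 2.2.1, Cufflinks 2.2.1 and the builds mm9 and mm10, without their roles. The sources used here do not give the gene annotation or any use of strand. The authors deposited 1 decimal value per gene, taken as FPKM. The headers name no unit; totals that differ between libraries and low values in whole fragments per length fit FPKM.

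Depth was estimated from single-exon genes with low values, with 232 bases taken off each length; 98.7% to 100% of 72 to 79 such genes came out whole within 0.05 fragments. The smallest value was taken as 1 fragment. Lengths, coordinates and types came from GENCODE M21 (GRCm38), which held 21817 of the 21936 identifiers, 21780 of them protein-coding, so non-coding RNA is hardly covered. The 20 classes are patterns of gene symbols. Folds between libraries are ratios of FPKM, and the spread is the SD of log2(FPKM + 1). Scripts were tested on simulated data. Python 3.11.15, pandas 2.3.3, numpy 2.4.6 and matplotlib 3.10.9 were used.

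The rule for members, the 25 cell type lists and the 12 pathway lists were chosen with earlier results of these data known. Genes named were the 30 most abundant, the 5 leading of each class, the 6 leading of each list, list members at 0, the 20 most variable, and those next to the threshold; some genes under this rule are not reported here. Other list members, and all of 9 further groups such as the interferon-induced families, were named after their values were seen. Alternatives changed the threshold, scaling, denominator and pseudocount and left out each library in turn.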

Additional observations from a re-analysis of the deposited data

How the results depend on the processing

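No paired analysis was possible because the results come from 1 group and from no test. The number of members was 11603 to 13253 when the threshold was set at 0.5 or 2 FPKM, applied to the mean or to any library, or when libraries were scaled to an equal total or reduced to 1 row per symbol, and 9662 at a threshold of 5. Leaving out each library in turn gave 12558 to 12623 members, a share of 31.0% to 31.9% for the 100 most abundant genes, muscle sums of 7149 to 10385 FPKM and a median SD of 0.08 to 0.11 on the log2 scale. Without the mitochondrial genome the 100 most abundant genes held 26.7%, ribosomal proteins 9.80% and the matrix 2.15%. Without rows that share at least 50% of their words, an alternative chosen after seeing the data, these were 28.9%, 8.76% and 2.12%, and the mitochondrial genome held 4.88%. As shares of estimated fragments, also chosen after seeing the data, the ribosomal class held 4.99%, the mitochondrial genome 2.32%, the cytoskeleton 3.81% and the matrix 3.12%. Without its most abundant gene the epithelial list summed to 1737 FPKM, the stromal list to 4536 and the macrophage list to 493. Depth limits the low end: at 1 FPKM a transcript of 2000 bases rests on 31.3 to 31.5 fragments, and counting error alone applies to that number.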
